A study of Homo sapiens with 6 samples.

Results

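The nuclear genes of respiratory complexes II to V were compared between Jurkat cells overexpressing a splicing isoform of PD-1 and Jurkat cells carrying the vector. Members were chosen by gene symbol, with earlier results of these data known. A pattern for the SDHA to SDHD, UQCR, CYC1, COX and ATP5 names matched 109 rows, of which 62 carried pseudogene names and 1 was a divergent transcript, UQCRFS1-DT. The 46 remaining genes, of 59248 symbols in all, comprised 4 of complex II, 10 of complex III, 14 of complex IV and 18 of complex V. Jurkat is an established human T-cell leukemia line. The tested group held 3 bulk RNA-seq libraries with the genotype PDCD1 28 OE, in which the overexpressed isoform of PDCD1, the gene of the PD-1 receptor, keeps 28 bases of intron sequence. The other group held 3 vector libraries. Cells of both groups are named Jurkat KO-1 in the growth protocol, and what KO-1 stands for is not given in the sources used here. The labels do not state whether the overexpressing cells were a clone or a pool, and they do not describe the libraries as separate cultures. The p-values therefore rest on the spread between libraries, which may be technical.

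The respiratory chain sits in the inner mitochondrial membrane. Complex II (succinate dehydrogenase) feeds electrons from succinate to ubiquinone, complex III passes them from ubiquinol to cytochrome c, and complex IV (cytochrome c oxidase) hands them to oxygen. Complexes III and IV pump protons, and complex V (ATP synthase) lets the protons return through a rotating ring and makes ATP. Complex II is encoded in the nucleus alone, whereas cytochrome b of complex III, the catalytic core of complex IV and parts of the membrane sector of complex V are encoded in mitochondrial DNA. Activated T cells are known to enlarge their mitochondrial respiratory capacity.

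Libraries held 59911578 to 84220970 estimated counts in all. PDCD1 checked the labels, with 945, 1059 and 807 estimated counts in the OE libraries against 14, 18 and 15 in the vector libraries. Defining T-cell markers were present in both groups, with mean CD3D at 250.5 and CD3E at 396 CPM (estimated counts scaled to the TMM-adjusted library total) in OE against 268 and 415 CPM in vector. CD2, CD7 and CD3G were lower in OE, at means of 4.32, 17.5 and 135 CPM against 25.6, 74.4 and 209 CPM in vector. Of the 12 T lineage markers, 2 were higher and 7 lower in OE, and their sum was 2892 to 2940 CPM in OE against 2989 to 3211 CPM in vector. Summed B cell markers, of which 3 of 5 could be tested, ran from 28.8 to 37.0 CPM in OE and from 41.7 to 60.1 CPM in vector. Summed myeloid markers were 1.02 to 1.12 CPM in OE and 1.26 to 1.96 CPM in vector. Summed epithelial markers were 0.785 to 1.58 CPM in OE and 0.192 to 0.446 CPM in vector, with EPCAM at 0 in each library. Summed muscle markers were 0.231 to 0.806 CPM in OE and 0.636 to 0.88 CPM in vector, with TNNT2 and MYL2 at 0. The part of these differences in the results below was not tested. In bulk samples, fewer cells of a kind and less RNA per cell cannot be told apart.

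Transcripts of complexes II to V were more often lower than higher in the OE libraries, and complex V held 10 of the 20 lower ones. Of the 46 genes, 41 had enough counts to be tested. edgeR called 5 of them higher and 20 lower at an adjusted p below 0.05, that is 12.2% and 48.8% of those tested. Over all 21055 genes tested, 46.1% were called, 22.6% higher and 23.4% lower. The CPM of the groups did not overlap for 26 of the 41, or 63.4%, against 58.7% of all genes. The median log2 fold change (OE over vector) was -0.19 for the 41 genes and 0.02 for all genes. Most changes were small. With a change of at least 1.5-fold in addition, 1 member was higher and 7 were lower, against 14% and 11.4% of all genes. Among the called members only ATP5MC3 differed by more than 2-fold, and CYC1 lay at 2.0-fold after rounding. Without vector replicate 2, 8 members were called higher and 22 lower.

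**Figure D1:**
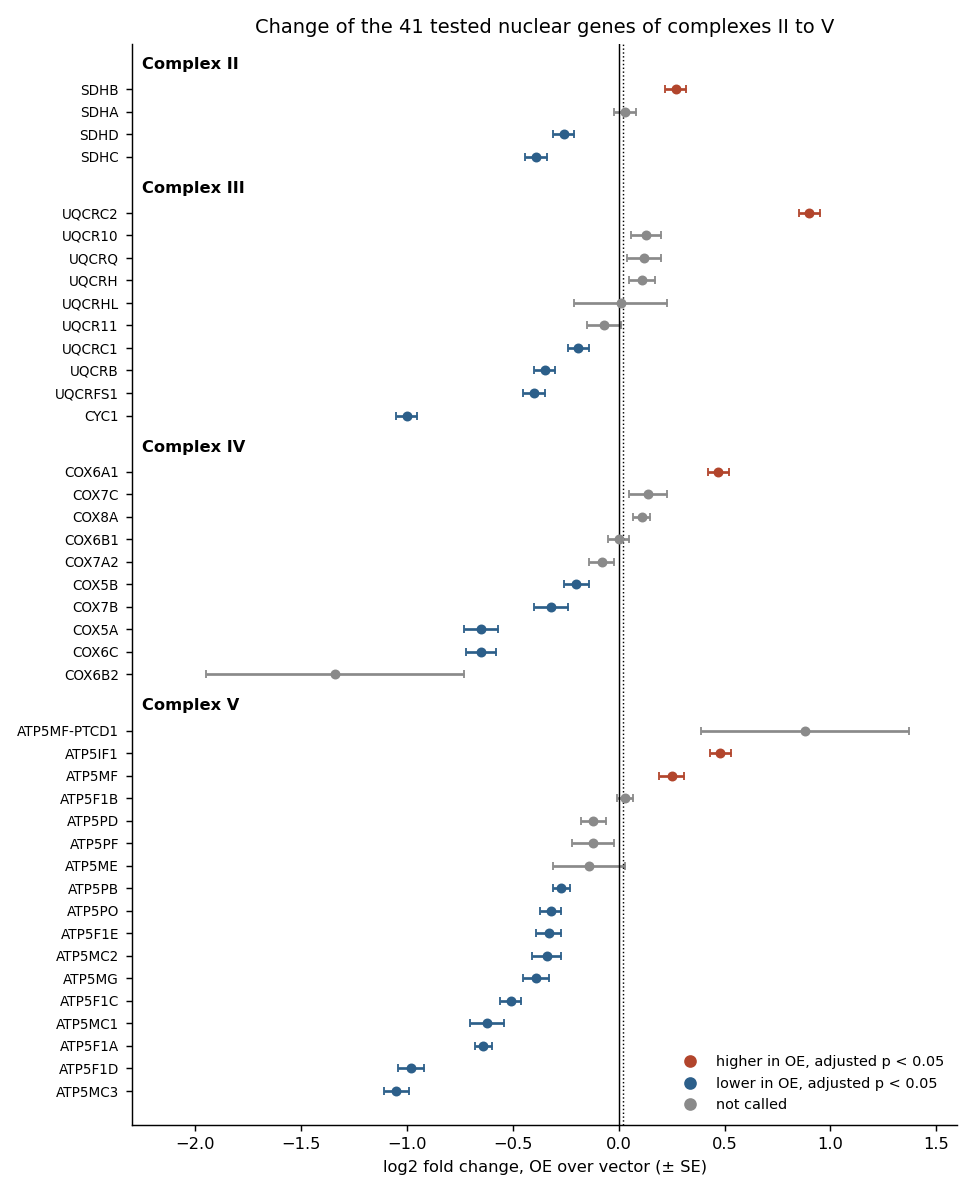
Log2 fold change (OE over vector, x axis) of the 41 tested genes, grouped by complex, with bars for 1 SE from edgeR and colours for the call (red higher, blue lower, grey not called); the dotted line is the median of all genes tested, 0.02. UQCRC2 stands highest among the called genes at 0.90, and ATP5MC3, CYC1 and ATP5F1D lowest at -1.05, -1.0 and -0.98.

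Transcript levels were also summed over each complex. The summed CPM of complex V was 2253 ± 39.0 in OE and 2756 ± 35.4 in vector (SD, n = 3 each), a difference of -18.3%. For complex II the sums were 325 ± 5.34 CPM in OE and 344 ± 7.34 CPM in vector, a difference of -5.42%. Complex III summed to 929.9 ± 8.79 CPM in OE and 952 ± 35.8 CPM in vector, and complex IV to 715 ± 6.59 CPM in OE and 719 ± 27.5 CPM in vector. The differences of complexes III and IV, -2.31% and -0.491%, were smaller than the spread of the vector libraries. No test was run on these sums.

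In complex II, the iron-sulfur subunit and the membrane anchors changed in opposite directions. SDHA, the flavoprotein that oxidises succinate, had 119, 122 and 117 CPM in OE against 121, 109 and 120.2 CPM in vector. These values overlapped (log2 fold change 0.03 ± 0.05, SE; edgeR adjusted p = 0.722). Rows of 3 SDHA pseudogenes held 11.9% to 15.3% of the counts of SDHA and these rows together, so how reads were split between them affects the SDHA values. SDHB, the iron-sulfur subunit that carries the electrons onward, had 71.7, 72.2 and 75.8 CPM in OE against 61.3, 60.5 and 60.2 CPM in vector. Each OE library was above each vector library, and SDHB rose 1.21-fold (log2 0.27 ± 0.05; edgeR adjusted p = 0.00209). SDHC, an anchor that binds heme and ubiquinone, had 64.1, 67.8 and 65.2 CPM in OE against 83.7, 86.6 and 87.6 CPM in vector. SDHD, the other anchor, had 64.6, 67.7 and 68.6 CPM in OE against 81.8, 78.6 and 79.6 CPM in vector. Both anchors were lower in each OE library, SDHC by 0.39 and SDHD by 0.26 on the log2 scale (fold changes -0.39 ± 0.05 and -0.26 ± 0.05; edgeR adjusted p = 0.00036 and 0.003). The ratio of SDHB to SDHC counts was 1.12, 1.06 and 1.16 in OE against 0.733, 0.699 and 0.687 in vector. This ratio and the other ratios given below were chosen after the values were seen and were not tested.

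In complex III, UQCRC2 rose, whereas CYC1, UQCRFS1, UQCRB and UQCRC1 fell. UQCRC2 (chromosome 16, 21952660 to 21983660, hg38), a core subunit of the matrix arm, had 249, 260.2 and 257 CPM in OE against 141, 131 and 139 CPM in vector. It stood 1.86-fold higher, with no overlap (log2 0.90 ± 0.05; edgeR adjusted p = 6.2e-06). Its partner core subunit UQCRC1 had 206, 212 and 214 CPM in OE against 249, 248 and 226 CPM in vector. UQCRC1 was lower in each OE library (log2 -0.19 ± 0.05; edgeR adjusted p = 0.0155), a call that ended when OE replicate 1 (log2 -0.18, edgeR adjusted p = 0.0686), OE replicate 2 (-0.20, 0.0555) or vector replicate 1 (-0.18, 0.0547) was left out and with upper-quartile scaling (-0.14, 0.0588). The count ratio of UQCRC2 to UQCRC1 was 1.21, 1.23 and 1.2 in OE against 0.567, 0.527 and 0.616 in vector, so the more abundant of the pair by counts was UQCRC2 in OE and UQCRC1 in vector. Per kilobase of coding sequence the levels were 188 CPM for UQCRC2 and 146 CPM for UQCRC1 in OE, and 101 and 167 CPM in vector. Counts cover whole transcripts, and the representative transcripts have 2615 bases for UQCRC2 and 1985 for UQCRC1. The order of the pair per kilobase in OE therefore depends on the length used.

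The promoter sequences of these partner genes are shown because the genes changed in opposite directions. Each is the 250 bases before the start that RefSeq annotates on GRCh38.p14, 5′ to 3′ on the gene's strand. GENCODE 29, from which gene positions are given, starts both genes further upstream, so these windows lie within its gene bounds. UQCRC1 is on the minus strand (chr3:48609647-48609896) and UQCRC2 on the plus strand (chr16:21953111-21953360). Capitals mark a match to the core motif of the factor NRF1 (GCGCA, any base, GCGC), read here on the opposite strand; the UQCRC2 window held no match to any of the 3 motifs searched below.
UQCRC1: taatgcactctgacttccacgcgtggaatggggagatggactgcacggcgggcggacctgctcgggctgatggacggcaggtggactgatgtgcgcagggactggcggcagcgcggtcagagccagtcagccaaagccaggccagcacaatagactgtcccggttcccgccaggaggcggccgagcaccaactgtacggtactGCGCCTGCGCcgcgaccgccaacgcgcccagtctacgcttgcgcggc
UQCRC2: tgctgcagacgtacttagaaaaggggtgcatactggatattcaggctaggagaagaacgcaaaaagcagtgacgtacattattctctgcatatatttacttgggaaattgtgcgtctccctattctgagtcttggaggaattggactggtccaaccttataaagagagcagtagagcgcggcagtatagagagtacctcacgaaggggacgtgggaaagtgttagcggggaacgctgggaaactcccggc

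CYC1 (chromosome 8, 144095027 to 144097525), the cytochrome c1 subunit that gives electrons to cytochrome c, had 68.6, 69.4 and 70.5 CPM in OE against 143, 142 and 132 CPM in vector. The OE values were close to each other and far below each vector library (log2 -1.0 ± 0.05, or 2.0-fold lower; edgeR adjusted p = 5.07e-06). UQCRFS1, the Rieske iron-sulfur subunit, had 87.7, 86.4 and 86.2 CPM in OE against 115, 118 and 110 CPM in vector. Its groups did not overlap (log2 -0.40 ± 0.05; edgeR adjusted p = 0.00026), and 3 pseudogene rows held 6.28% to 8.32% of the joint counts. The divergent transcript UQCRFS1-DT overlaps the first bases of UQCRFS1 on the opposite strand, and the strand setting of the counting is not given in the sources used here; it had 84, 88 and 91 estimated counts in OE against 11, 51 and 52 in vector. UQCRB, which lies beside the ubiquinone site, had 91.6, 89.7 and 90.4 CPM in OE against 110.4, 121 and 114 CPM in vector. It was lower in each OE library (log2 -0.35 ± 0.05; edgeR adjusted p = 0.000767).

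The remaining complex III genes were not called. UQCRH, the hinge subunit that contacts cytochrome c1, had 106, 104 and 103 CPM in OE against 95.2, 104 and 90.1 CPM in vector. Its near-identical copy UQCRHL had 2.93, 3.09 and 2.32 CPM in OE against 2.47, 3.45 and 2.35 CPM in vector. Both overlapped between groups, and reads of this pair cannot be assigned with certainty. UQCRQ, UQCR10 and UQCR11, small supernumerary subunits, had log2 fold changes of 0.12, 0.13 and -0.07. The fold changes of UQCRQ and UQCRH turned negative once a trend with GC content and length was removed (-0.10 and -0.03). Both were called higher without vector replicate 2 (log2 0.19 and 0.16).

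In complex IV, COX6A1 rose and COX5A, COX6C, COX7B and COX5B fell, although without OE replicate 2 the fallen were 2. COX6A1, the form of subunit 6A found in most tissues, had 216, 221 and 213 CPM in OE against 157, 163 and 149.5 CPM in vector. Each OE library stood above each vector library, by 1.39-fold on average (log2 0.47 ± 0.05; edgeR adjusted p = 0.00012). Over the alternative fits its log2 fold change ran from 0.26 to 0.52. Per kilobase of coding sequence, COX6A1 had a mean of 663 CPM in OE and 478 CPM in vector, the highest of the 46 genes in OE. Counts cover whole transcripts, and 327 of the 572 bases of the COX6A1 transcript are coding, so this rank depends on the length used. The heart and muscle form COX6A2 had 0 estimated counts in all 6 libraries. The 250 promoter bases of COX6A1 (chr12:120437863-120438112, plus strand, before the RefSeq start on GRCh38.p14, the last bases lying within the GENCODE bounds) are shown as those of the complex IV member that rose, with capitals for a match to CCGGAAG, the core bound by ETS factors such as GABPA, on the opposite strand.
COX6A1: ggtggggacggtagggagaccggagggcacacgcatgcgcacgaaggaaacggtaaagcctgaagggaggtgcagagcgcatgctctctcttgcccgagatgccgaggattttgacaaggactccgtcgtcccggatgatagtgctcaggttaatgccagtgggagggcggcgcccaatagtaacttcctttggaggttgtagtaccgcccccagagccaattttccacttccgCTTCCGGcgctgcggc

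COX5A, a nuclear subunit of the matrix side, had 47.7, 53.7 and 59.1 CPM in OE against 82.6, 89.4 and 80.0 CPM in vector. COX6C, a small membrane subunit, had 57.9, 55.0 and 60.3 CPM in OE against 90.4, 99.3 and 82.9 CPM in vector. For both genes the highest OE library lay below the lowest vector library, and both fell 1.57-fold (log2 -0.65 ± 0.08 and -0.65 ± 0.07; edgeR adjusted p = 0.00044 and 0.000221). COX7B had 28.9, 25.4 and 24.8 CPM in OE against 32.2, 34.1 and 32.3 CPM in vector (log2 -0.32 ± 0.08; edgeR adjusted p = 0.0113). Its OE replicate 1 lay nearest to the vector libraries, and without OE replicate 2 the edgeR adjusted p was 0.051 (log2 -0.29). COX5B, which binds zinc, fell by 0.20 on the log2 scale (-0.20 ± 0.06; edgeR adjusted p = 0.0336). The COX5B call ended without OE replicate 1 (log2 -0.22, edgeR adjusted p = 0.0586), 2 (-0.18, 0.116) or 3 (-0.19, 0.104), with upper-quartile scaling (-0.15, 0.101), without a filter on low counts (-0.21, 0.0626) and with the replicate number as a block (-0.20, 0.0748).

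Complex IV subunits that come in tissue-specific pairs were represented by the general form. COX6B1 had 53.2, 51.6 and 52.8 CPM in OE against 52.9, 53.2 and 51.5 CPM in vector, with a log2 fold change of 0.00 ± 0.05. The testis form COX6B2 had 6, 12 and 26 estimated counts in OE against 42, 25 and 44 in vector. Those COX6B2 values overlapped, and 2 OE libraries were at or under the floor of 12 estimated counts below which a value is not read (log2 -1.34 ± 0.61; edgeR adjusted p = 0.105; without OE replicate 3 it was called, at -2.12, and without vector replicate 2, at -1.65). COX7A2 had 54.8, 60.3 and 55.7 CPM in OE against 62.0, 58.5 and 60.6 CPM in vector and overlapped, while the muscle form COX7A1 had 0 estimated counts in each OE library and 2, 0 and 4 in the vector libraries. COX7B2 was at 0 in all 6 libraries. COX8A had 134, 135 and 137 CPM in OE against 128, 122 and 127 CPM in vector. The COX8A groups did not overlap, yet the change missed the threshold (log2 0.11 ± 0.04; edgeR adjusted p = 0.0726); it passed with upper-quartile scaling (0.16) and the stricter filter (0.12), and its sign turned when the GC and length trend was removed (-0.13). COX8C had 1, 0 and 8 estimated counts in OE against 0, 4 and 3 in vector, under the floor. COX7C had a log2 fold change of 0.14 ± 0.09 and was not called, although without vector replicate 2 it was (0.24).

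**Figure D2:**
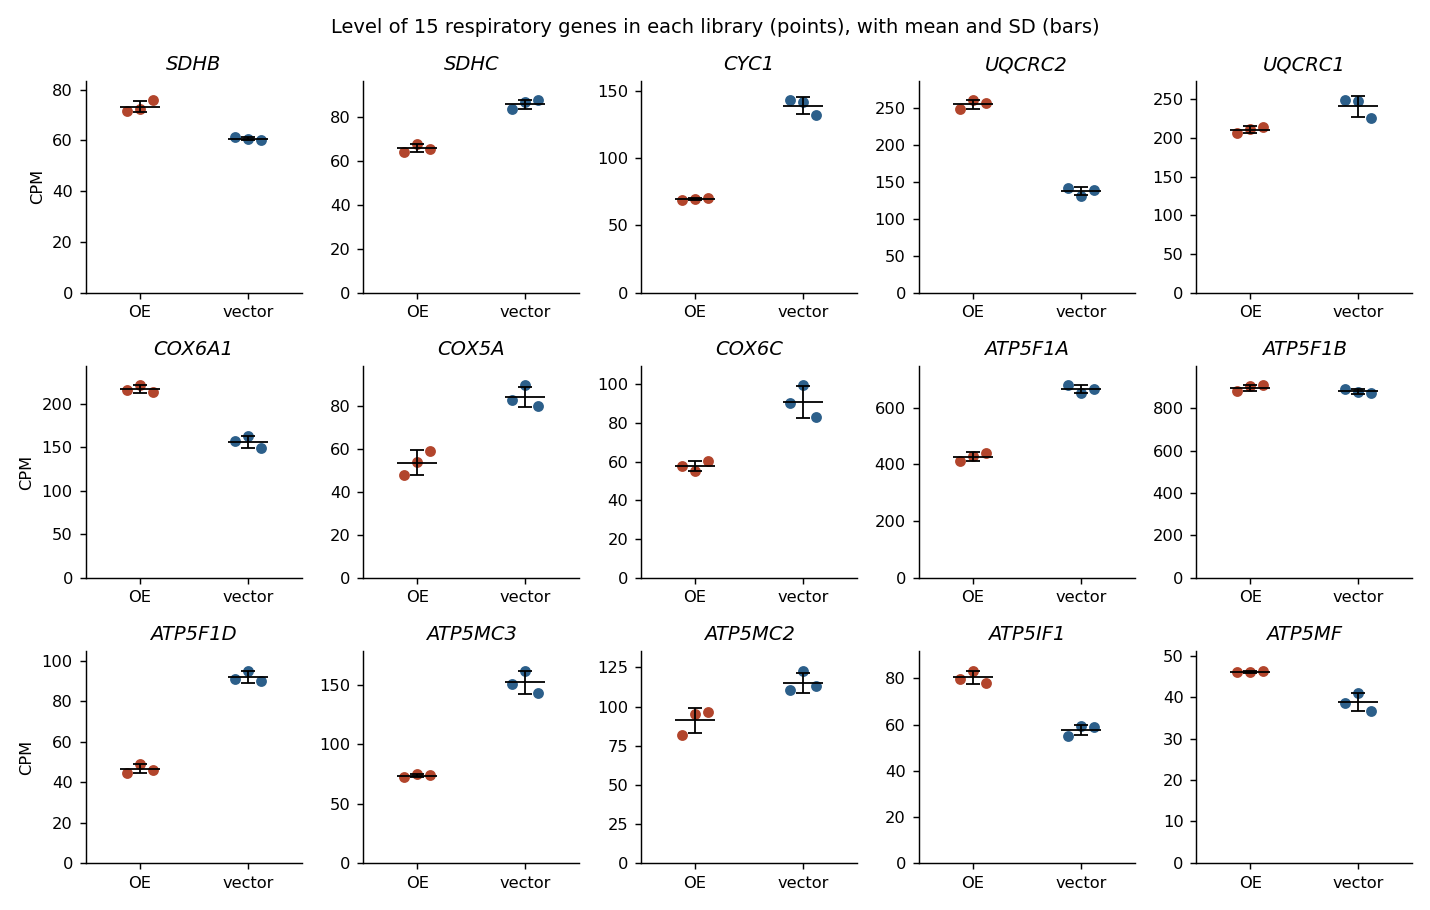
Level (CPM, y axes from 0) of 15 genes in each OE library (red points) and vector library (blue points), with the mean and SD as black bars. The groups do not overlap in any panel but that of ATP5F1B, where OE libraries had 880.4 to 907 CPM and vector libraries 869 to 892 CPM.

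Complex V had the most members called lower, 10 of 17 tested, beside 2 called higher, and its median log2 fold change was -0.32. These calls were 58.8% and 11.8%, against 23.4% and 22.6% of all genes tested. The F1 sector in the matrix holds the catalytic head, built of the alpha subunit ATP5F1A and the beta subunit ATP5F1B, and the central stalk that turns inside it. ATP5F1A (chromosome 18, 46080248 to 46104334) had 413, 430.4 and 442 CPM in OE against 679, 653 and 668 CPM in vector. ATP5F1A fell 1.56-fold, with no overlap (log2 -0.64 ± 0.04; edgeR adjusted p = 1.74e-05). ATP5F1B, whose protein carries the catalytic sites, had 880.4, 902 and 907 CPM in OE against 892, 878 and 869 CPM in vector. ATP5F1B overlapped between the groups (log2 0.03 ± 0.04; edgeR adjusted p = 0.571). The proteins assemble in equal numbers, but the count ratio of ATP5F1A to ATP5F1B was 0.469, 0.477 and 0.487 in OE against 0.762, 0.743 and 0.769 in vector. Per kilobase of coding sequence, ATP5F1A had 258 CPM and ATP5F1B 565 CPM in OE, against 402 and 554 CPM in vector.

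All 3 central stalk genes fell. ATP5F1D, the delta subunit, had 44.7, 49.1 and 45.9 CPM in OE against 91, 95.3 and 90.0 CPM in vector. The OE values of ATP5F1D were near 0.506 of the vector values, a 1.98-fold fall (log2 -0.98 ± 0.06; edgeR adjusted p = 8.07e-06). ATP5F1C, the gamma subunit that forms the rotating shaft, fell by 0.51 on the log2 scale (-0.51 ± 0.05; edgeR adjusted p = 0.000102) and ATP5F1E, the epsilon subunit, by 0.33 (-0.33 ± 0.06; edgeR adjusted p = 0.00294). Their summed level was 220 ± 3.06 CPM in OE and 333 ± 2.73 CPM in vector.

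The c ring is the rotor in the membrane. Its subunit is encoded by 3 genes on 3 chromosomes, ATP5MC1 on chromosome 17, ATP5MC2 on 12 and ATP5MC3 on 2, whose proteins differ in the targeting peptide and share the mature sequence. The shared 77 codons, the last 231 coding bases before the stop codon, are shown because the mRNAs encode the same residues but are told apart by their bases. Capitals mark the 57 positions at which the 3 genes are not all identical (GENCODE 29, GRCh38).
ATP5MC1: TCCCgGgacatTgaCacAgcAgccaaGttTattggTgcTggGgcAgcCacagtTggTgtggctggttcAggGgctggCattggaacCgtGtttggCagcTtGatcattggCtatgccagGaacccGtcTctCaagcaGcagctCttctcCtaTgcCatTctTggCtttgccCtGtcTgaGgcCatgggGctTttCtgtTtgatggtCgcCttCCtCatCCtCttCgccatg
ATP5MC2: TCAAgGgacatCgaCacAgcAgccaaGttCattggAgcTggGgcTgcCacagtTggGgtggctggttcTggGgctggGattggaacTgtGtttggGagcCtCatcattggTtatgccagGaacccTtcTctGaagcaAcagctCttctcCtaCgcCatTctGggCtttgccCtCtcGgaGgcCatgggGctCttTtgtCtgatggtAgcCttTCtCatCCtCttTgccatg
ATP5MC3: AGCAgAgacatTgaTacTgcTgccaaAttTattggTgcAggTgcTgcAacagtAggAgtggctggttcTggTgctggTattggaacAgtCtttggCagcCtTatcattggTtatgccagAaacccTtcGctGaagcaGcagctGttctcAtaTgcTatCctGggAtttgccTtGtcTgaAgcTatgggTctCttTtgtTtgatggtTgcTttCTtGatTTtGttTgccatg
Over this stretch ATP5MC1 and ATP5MC2 had 88.3% of bases in common, and ATP5MC3 had 80.1% in common with either of them. The longest run shared by any pair was 17 bases, so reads over this stretch differ between the genes.

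All 3 c-subunit genes fell, and ATP5MC3 fell furthest. ATP5MC3 (chromosome 2, 175176258 to 175184607) had 72.0, 74.6 and 73.8 CPM in OE against 150.3, 162 and 143 CPM in vector. The highest OE library was below the lowest vector library by a wide margin (log2 -1.05 ± 0.06, 2.07-fold lower; edgeR adjusted p = 6.57e-06). ATP5MC1 had 30.6, 33.7 and 29.6 CPM in OE against 46.5, 51.9 and 46.1 CPM in vector (log2 -0.62 ± 0.08; edgeR adjusted p = 0.000334). ATP5MC2 had 82.1, 95.1 and 96.5 CPM in OE against 110.3, 123 and 113 CPM in vector (log2 -0.34 ± 0.07; edgeR adjusted p = 0.00617). Neither overlapped between the groups, and OE replicate 1 was the lowest for ATP5MC2. The sum over the 3 genes was 196 ± 9.94 CPM in OE and 316 ± 18.7 CPM in vector, a difference of -37.9%. ATP5MC3 supplied 39.0%, 36.7% and 36.9% of these counts in OE against 48.9%, 48.1% and 47.4% in vector. That share was 37.5 ± 1.27% in OE and 48.1 ± 0.797% in vector (SD, n = 3 each), a difference of -10.6 percentage points with an exact two-sided permutation p of 0.1, the smallest that 3 libraries against 3 allow. ATP5MC2 supplied 44.4%, 46.8% and 48.3% in OE against 35.9%, 36.5% and 37.4% in vector. It was thus the leading c-subunit transcript by counts in each OE library, and ATP5MC3 in each vector library.

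**Figure D3:**
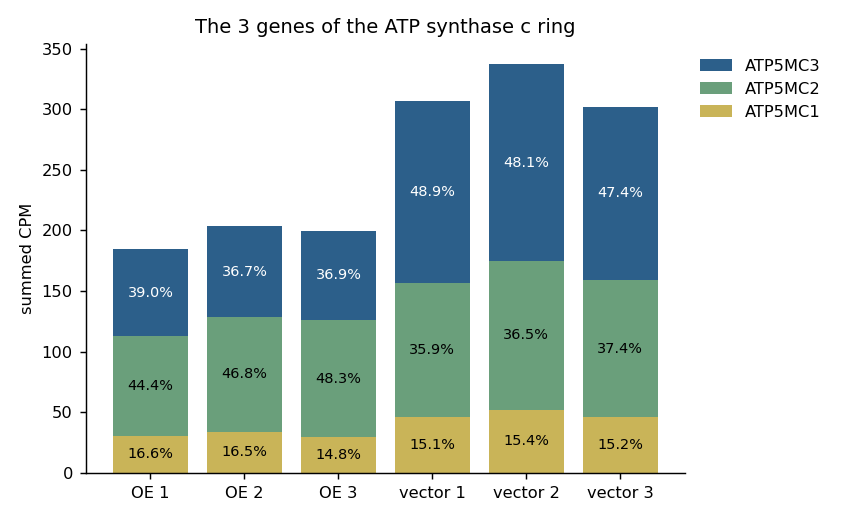
Summed CPM (y axis) of the 3 c-subunit genes in each library, stacked by gene, with each gene's percentage of the 3 genes' counts printed in its segment. The stacks reach 185 to 203 CPM in OE and 303 to 337 CPM in vector, and the ATP5MC3 segment takes 36.7% to 39.0% in OE and 47.4% to 48.9% in vector.

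The peripheral stalk holds the catalytic head still against the turning rotor. Of its 4 genes, ATP5PB (subunit b) and ATP5PO (the oligomycin sensitivity protein) fell, with log2 fold changes of -0.27 ± 0.04 and -0.32 ± 0.05 (edgeR adjusted p = 0.00102 and 0.00143). ATP5PD and ATP5PF both had log2 fold changes of -0.12 and were not called; both were called lower with the GC and length trend removed (-0.24 and -0.25), and ATP5PD also without vector replicate 2 (-0.18). Among the small membrane subunits, ATP5MG (subunit g) fell by 0.39 on the log2 scale (-0.39 ± 0.06; edgeR adjusted p = 0.00113). ATP5ME (subunit e) had 3.67, 4.30 and 4.07 CPM in OE against 4.11, 5.16 and 4.01 CPM in vector, which overlapped. ATP5MF (subunit f) had 46.0, 46.0 and 46.4 CPM in OE against 38.6, 41 and 36.7 CPM in vector. The ATP5MF groups did not overlap (log2 0.25 ± 0.06; edgeR adjusted p = 0.00952), but the rise was lost with the GC and length trend removed (log2 -0.03, edgeR adjusted p = 0.673). The read-through transcript ATP5MF-PTCD1 shares exons with ATP5MF and had 31, 40 and 68 estimated counts in OE against 23, 43 and 13 in vector; it was not called (log2 0.88 ± 0.49). ATP5MGL, a copy of ATP5MG, had 5, 3 and 12 estimated counts in OE against 1, 3 and 0 in vector and was not tested.

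ATP5IF1, the inhibitor that binds ATP synthase and stops it from running backwards, rose while most subunits fell or were not called. ATP5IF1 had 79.7, 83.4 and 78.1 CPM in OE against 55.1, 59.2 and 58.8 CPM in vector. Each OE library was above each vector library, a 1.39-fold rise (log2 0.48 ± 0.05; edgeR adjusted p = 0.0002). Over the alternative fits the log2 fold change of ATP5IF1 ran from 0.27 to 0.53. The count ratio of ATP5IF1 to ATP5F1A was 0.193, 0.194 and 0.177 in OE against 0.0811, 0.0906 and 0.088 in vector. This ratio also holds the fall of ATP5F1A (log2 -0.64), whereas ATP5F1B was not called (0.03). These are mRNA levels, and protein was not measured.

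Subunits of complexes III to V are also encoded in mitochondrial DNA, and their difference from the nuclear ones was not tested. Of these 6, 3 rose and none fell in edgeR, against 22.6% and 23.4% of all genes tested. The median was 0.14 on the log2 scale. The complex IV catalytic core rose in all its members, MT-CO1 by 0.25 ± 0.03, MT-CO2 by 0.47 ± 0.04 and MT-CO3 by 0.49 ± 0.09 on the log2 scale (edgeR adjusted p = 0.000314, 4.43e-05 and 0.00227). MT-CO2 had 6186, 6352 and 6068 CPM in OE against 4380, 4645 and 4397 CPM in vector. Each OE library was above each vector library. MT-CYB, the cytochrome b of complex III, had 2593, 2637 and 2698 CPM in OE against 2287, 3203 and 2299 CPM in vector, where vector replicate 2 stood above all others (log2 0.03 ± 0.12; 0.20 and called without that library; -0.06 without vector replicate 1 or 3). The ATP synthase genes MT-ATP6 and MT-ATP8 had log2 fold changes of -0.16 ± 0.06 and -0.08 ± 0.08, not called. MT-ATP6 was called lower by DESeq2 (-0.17), without vector replicate 2 (-0.09) or 3 (-0.22), and, with MT-ATP8 (-0.34), when the GC and length trend was removed (-0.26).

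Subunits of the same complexes whose symbols lie outside the pattern gave 1 rise and 2 falls among 5 tested of 6. Of all genes tested, 22.6% rose and 23.4% fell. COX7A2L, which joins complexes III and IV into supercomplexes, had 70.4, 69.1 and 57.5 CPM in OE against 40.4, 39.4 and 37.8 CPM in vector. Each OE library was above each vector library (log2 0.74 ± 0.08; edgeR adjusted p = 0.000207). NDUFA4, a complex IV subunit, had a log2 fold change of -0.21 ± 0.07 (edgeR adjusted p = 0.035) and ATP5MJ, a small ATP synthase subunit, a log2 fold change of -0.30 ± 0.09 (edgeR adjusted p = 0.0271). These calls were not stable. That of NDUFA4 ended without OE replicate 1 (-0.16), OE replicate 3 (-0.22) or vector replicate 1 (-0.22), and that of ATP5MJ without OE replicate 1 (-0.29), 2 (-0.31) or 3 (-0.30). COX4I1 was not called, at 0.07 ± 0.04 (-0.12 and called lower with the GC and length trend removed), and ATP5MK was not called, at -0.29 ± 0.11 (called lower by DESeq2, at -0.30, with the GC and length trend removed, at -0.41, and without vector replicate 3, at -0.39).

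The assembly factors, which insert cofactors and join subunits, changed in both directions. For complex IV, 11 of 28 rose and 7 fell, or 39.3% and 25.0%, against 22.6% and 23.4% of all genes tested. The median was 0.13 on the log2 scale. Without OE replicate 2 or without OE replicate 3, 4 fell. COX15 and COA3, needed for heme a and for translation of MT-CO1, rose by 0.49 ± 0.05 and 0.64 ± 0.12 on the log2 scale (edgeR adjusted p = 0.000181 and 0.00287), and COA4 by 0.31 ± 0.06. COX16 fell by 0.57, the copper chaperone SCO1 by 0.41 and LRPPRC, which stabilises mitochondrial mRNAs, by 0.31 (-0.57 ± 0.08, -0.41 ± 0.06 and -0.31 ± 0.05; edgeR adjusted p = 0.000676, 0.00117 and 0.000861). For complex V, 1 of 7 rose and 3 fell, or 14.3% and 42.9%. ATPAF1, the chaperone of the beta subunit, and TMEM70, which serves c ring assembly, fell (log2 -0.34 ± 0.05 and -0.44 ± 0.06; edgeR adjusted p = 0.00129 and 0.000759), whereas ATPAF2, the chaperone of the alpha subunit, rose (0.32 ± 0.07; edgeR adjusted p = 0.00811). TMEM242 fell by 0.30 (-0.30 ± 0.10; edgeR adjusted p = 0.0432), a call that was lost without any 1 library other than vector replicate 2, at -0.31 to -0.22. For complex III, 2 of 10 rose and 2 fell, or 20% each, near the shares of all genes. For complex II, 1 of 4 rose and none fell. Without vector replicate 2, 4 of complex III rose and 1 of complex II fell. Each of the 5 calls made with all libraries was lost in several fits that left out 1 library, with fold changes of the same sign. TTC19 (0.17), C12orf73 (0.34) and SDHAF3 (0.25) lost their calls without OE replicate 1 (0.18, 0.23 and 0.22), OE replicate 2 (0.13, 0.36 and 0.22), vector replicate 1 (0.16, 0.27 and 0.21) or vector replicate 3 (0.17, 0.35 and 0.25). BCS1L, which inserts the Rieske protein (-0.36), lost its call without OE replicate 1 (-0.31), OE replicate 2 (-0.33) or vector replicate 1 (-0.30). HCCS, which attaches heme to cytochromes c and c1 (-0.30), lost its call without OE replicate 2 (-0.30) or 3 (-0.24), or vector replicate 1 (-0.29) or 3 (-0.31).

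Most of the carriers and pores that serve the complexes fell. Of 8 genes, 6 were lower (75%, against 23.4% of all genes tested) and none higher, with a median log2 fold change of -0.37. With upper-quartile scaling, with the stricter filter or with the GC and length trend removed, 1 was called higher. VDAC1, the main pore of the outer membrane, had 127, 139.6 and 133 CPM in OE against 272, 278 and 263 CPM in vector. The OE values lay far below the vector values (log2 -1.03 ± 0.05; edgeR adjusted p = 5.18e-06). VDAC2 and VDAC3 fell by 0.48 and 0.42 on the log2 scale (-0.48 ± 0.04 and -0.42 ± 0.04; edgeR adjusted p = 8.61e-05 and 9.8e-05). CYCS, the cytochrome c that CYC1 reduces, had a log2 fold change of -0.62 ± 0.06 (edgeR adjusted p = 0.000121); it lay outside the naming rule and was chosen after its value was seen.

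Of 15 regulators of respiratory genes, 14 were tested. Among these 10 fell and 2 rose, or 71.4% and 14.3%, against 23.4% and 22.6% of all genes tested. The median was -0.41 on the log2 scale. YY1, a zinc finger factor, had 157, 153 and 153 CPM in OE against 255, 263 and 248 CPM in vector. The groups lay far apart (log2 -0.73 ± 0.04; edgeR adjusted p = 1.02e-05). ESRRA, a nuclear receptor of mitochondrial genes, fell by 0.83 and TFB2M, a mitochondrial transcription factor, by 0.90 (-0.83 ± 0.06 and -0.90 ± 0.12; edgeR adjusted p = 3.23e-05 and 0.000606). GABPA, the ETS factor, and TFB1M rose by 0.23 ± 0.06 and 0.37 ± 0.10 (edgeR adjusted p = 0.0149 and 0.0199). The GABPA call ended without OE replicate 1 (0.22) or 2 (0.20), and the TFB1M call without OE replicate 2 (0.36) or 3 (0.32) or without vector replicate 1 or 3 (0.33 each). NRF1, whose motif is searched below, was not called (log2 -0.07 ± 0.08, edgeR adjusted p = 0.512). GABPB1 was called lower (log2 -0.31 ± 0.10, edgeR adjusted p = 0.0289), but not under every alternative. Both lay outside the naming rule and were chosen after their values were seen.

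The nuclear subunits of complex I, the other proton pump of the chain, are given for comparison. Of 37 tested, 8 rose and 10 fell, which is 21.6% and 27.0%, near the 22.6% and 23.4% of all genes tested. The median was -0.01 on the log2 scale. With the GC and length trend removed, 9 complex I genes rose and 15 fell, so the number that fell depends on the fit. In that fit 4 members of complexes II to V rose and 26 fell. NDUFA7, NDUFA13 and NDUFS7 rose by 0.68, 0.62 and 0.48 on the log2 scale, and NDUFB6, NDUFS1 and NDUFA10 fell by 1.0, 0.55 and 0.53. The difference between complex I and complexes II to V was not tested.

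**Figure D4:**
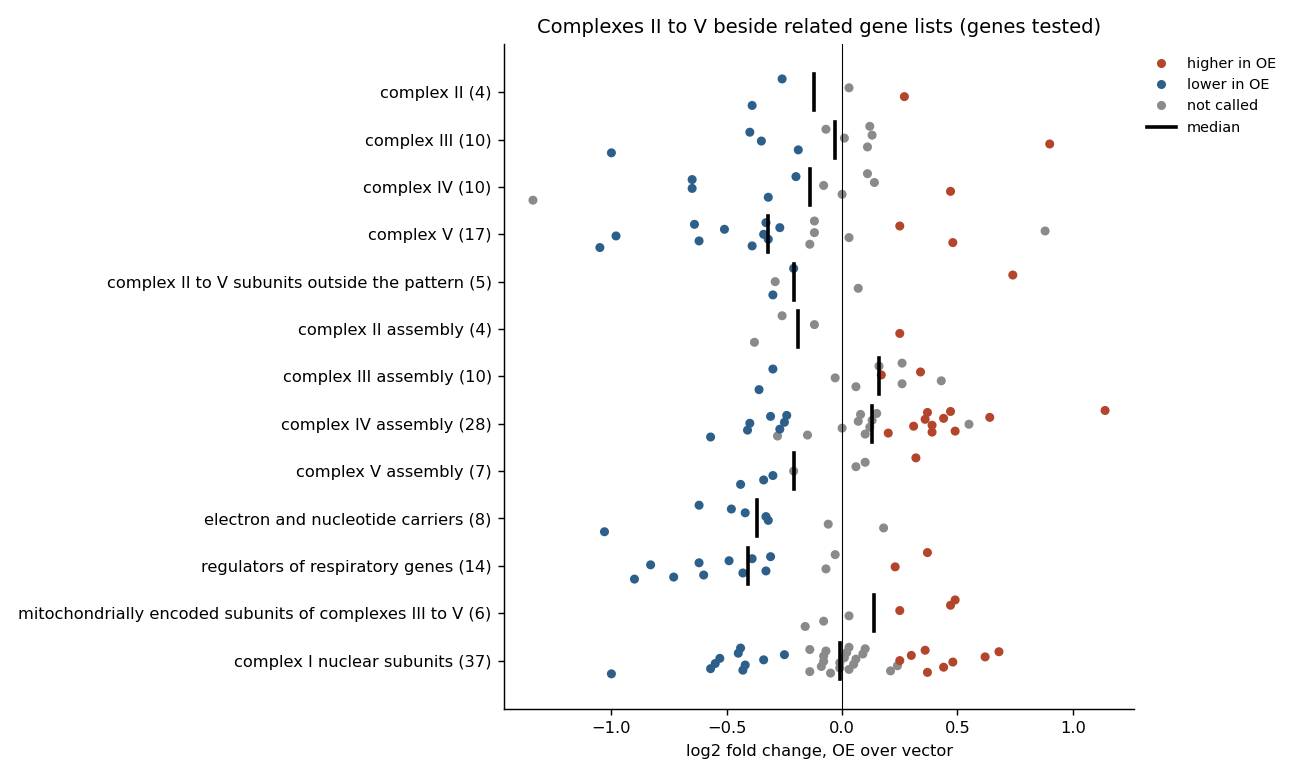
Log2 fold change (OE over vector, x axis) of each tested gene (points, coloured by call) in the 4 complexes and in 9 related lists, with the list median as a black bar and the number of genes tested in brackets. Medians run from -0.41 for the regulators and -0.37 for the carriers to 0.14 for the mitochondrially encoded subunits and 0.16 for complex III assembly.

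The genes of the 4 complexes lie on many chromosomes, and the changes of their neighbours were taken beside their own. For each tested member the median log2 fold change of up to 20 tested protein-coding genes on either side was calculated. A median over many genes varies less than a single gene by construction, so the spreads of the medians and of the members are not compared. These medians ran from -0.38 to 0.30, and for 37 of 41 members they lay within 0.3 of 0. UQCRC2 (0.90) and ATP5F1A (-0.64) both had neighbours with a median of 0.00. ATP5MC3 and ATP5F1D had neighbour medians of -0.21 and -0.19, and COX5A, which fell, had a neighbour median of 0.23. For CYC1 (-1.0), UQCRFS1 (-0.40) and COX5B (-0.20) the neighbour medians were -0.38, -0.35 and -0.37, and for COX6B1 (0.00) the median was 0.30. The part of these regional differences in the member values was not tested.

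**Figure D5:**
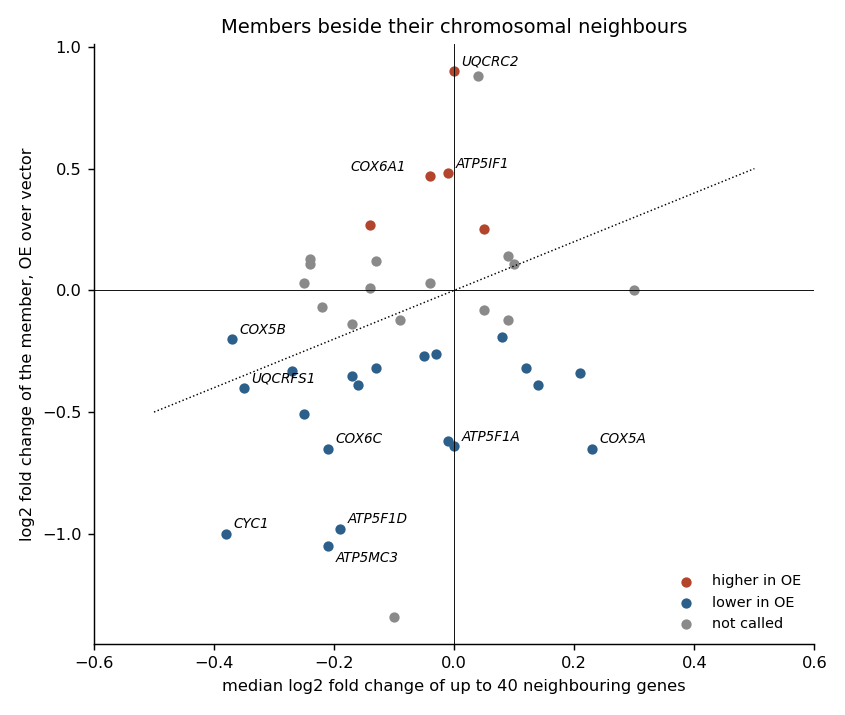
Log2 fold change of each tested member (y axis, coloured by call) against the median log2 fold change of its tested protein-coding neighbours, up to 20 on either side (x axis); the dotted line marks equal values. UQCRC2 and ATP5F1A, at 0.90 and -0.64, both lie at a neighbour median of 0.00, and COX5B, at -0.20, lies at -0.37.

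Promoter windows from 250 bases before to 50 after the start were matched for 34 of the 46 members in RefSeq (GRCh38.p14) and searched on both strands. The NRF1 letters (GCGCA, any base, GCGC) were in the windows of 10 of the 34 members, or 29.4%, against 6.98% of 27305 genes. CCGGAAG (ETS) was in 14, or 41.2%, against 12.2% of all genes. AANATGGC (YY1) was in 12, or 35.3%, against 7.97% of all genes. None of these 3 strings contains another, and the UQCRC1 and COX6A1 sequences printed above carry the first and the second. The windows of both genes also held the YY1 letters, in the bases after the start that are not printed. Among members called lower, 14 had a window, of which 5 held the NRF1 letters, 4 the ETS letters and 6 the YY1 letters. Among members called higher, 4 had a window, of which none held the NRF1 letters, 2 the ETS letters and 2 the YY1 letters. Among the 13 not called with a window, the numbers were 4, 8 and 4. A match describes the letters in the window and not binding.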

How the data were processed

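RNA-seq libraries of 3 PDCD1 28 OE and 3 vector Jurkat samples were analysed. The authors deposited whole-number estimated counts (expected counts) per gene symbol; library totals differ. The build was hg38 and the tools were DESeq2, StringTie, STAR 2.7.10a and fastp 0.23.2 per the submitters' processing notes. The annotation release, the strand setting and how reads matching several places were treated are not given in the sources used here. A value of 4 was held by more genes than a value of 3 in every library, so a read pair may add about 4, but a value of 1 was held by the most, and the unit is not settled; the floor was set at 12 estimated counts per library (3 read pairs at 4 each), and no counting intervals are given.

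All 21055 genes that passed the expression filter of edgeR 4.0.16 (R 4.3.3) were fitted together by the quasi-likelihood F test with TMM factors and a group term. P-values were adjusted by Benjamini-Hochberg over all genes tested, with a threshold of 0.05; SE values derive from the F statistic. CPM values use TMM-scaled library sizes. The fit code was run on simulated counts with few changed genes and independent libraries. That setting differs from these data, where 46.1% of genes were called, so the run does not bear on the calls here. Positions and coding lengths came from GENCODE 29 (40109 of 59248 symbols matched) and promoters from RefSeq (GRCh38.p14).

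Members and lists were chosen with earlier results of these data known, and some lists follow an earlier analysis of them. Values in every library were given, in each complex, for up to 3 rises and 3 falls of largest size (mean estimated counts of 100 or more), for complex II, CYC1, the c-subunit genes and paralog pairs; related lists were represented by up to 3 rises and 3 falls of smallest adjusted p. Alternatives were DESeq2 1.42.0, limma-voom (limma 3.58.1), DESeq2 size factors, upper-quartile factors, a filter raised to a mean of 50 estimated counts and 1 CPM (the stricter filter) or left out, values divided by 4, the replicate number as a block, removal of a trend with GC content and length, each library left out in turn, and a change of at least 1.5-fold in addition.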

Additional observations from a re-analysis of the deposited data

How the results depend on the processing

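Of the 25 members called, 21 kept their call under all 15 alternatives (4 higher, 17 lower), and UQCRC1, COX5B, COX7B and ATP5MF lost it in at least 1. The median log2 fold change of the members was -0.14 with upper-quartile factors and -0.24 with the GC and length trend removed. With upper-quartile factors or the stricter filter, complex IV had 2 members higher. With the GC and length trend removed, 4 members were higher and 26 lower, and complex V had 1 higher and 13 lower. With a change of at least 1.5-fold in addition, 2941 genes were higher and 2409 lower in all, 1 member was higher and 7 were lower, complex II had 0 in either direction, complex III 1 lower, complex IV 0 higher and 2 lower, and complex V 0 higher and 4 lower. With 1 library left out, 5 to 8 members were higher and 17 to 22 lower; complex III had 1 to 3 higher, and complex IV 1 to 2 higher and 2 to 5 lower. Without vector replicate 2, 30 members were called, all 25 among them, with ATP5PD, COX6B2, COX7C, UQCRH and UQCRQ added. Signs turned with the GC and length trend removed for SDHA (-0.01), UQCRQ (-0.10), UQCRH (-0.03), COX8A (-0.13), ATP5MF (-0.03), COX4I1 (-0.12) and MT-CYB (-0.02). They also turned for SDHA (-0.03) and UQCR11 (0.01) without vector replicate 2, for MT-CYB without vector replicate 1 or 3 (-0.06 each), and for UQCRHL without a filter (-0.01), without OE replicate 1 (-0.03) or 2 (-0.07), or without vector replicate 1 (-0.07) or 3 (-0.10). Over the fits that left out 1 library, SDHA ran from -0.03 to 0.05, UQCRHL from -0.10 to 0.20 and MT-CYB from -0.06 to 0.20. The cause was not tested. No pairing by replicate number was seen. Same-numbered libraries had correlations of -0.0351, 0.0217 and 0.051, and differently numbered ones ran from -0.0526 to 0.0267. With so few libraries these values cannot exclude that same-numbered libraries were handled together. With the number as a block, 5 members were higher and 19 lower, and COX5B was not called. Gene-level counts without a known strand setting limit paralogs, pseudogenes and overlapping genes, and the size of a read pair in these units limits values near the floor.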
